A study of Drosophila melanogaster with 12 samples.

Results

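Whole third-instar larvae of control *Drosophila* males were compared with control females over all 41081 rows of the transcript table. The rows were taken by their names as 31271 transcripts of the annotation (known, FBtr identifiers), 5969 transcripts that the authors assembled (MSTRG identifiers, from 2342 loci), 3840 insertions of transposable elements (TEs, FBti or RR identifiers, 153 families) and 1 other row. Control males (genotype +/+, CM1 to CM3) and control females (+/+, CF1 to CF3) had 3 libraries each, 6 of the 12 in the series. The other 6 were 3 of *ISWI* mutant males and 3 of *ISWI* mutant females. These larvae carried the alleles Iswi1/Iswi2 of a chromatin remodelling ATPase and came from stocks with yellow and white marker mutations. Their comparison is used to ask where the sex difference of the controls recurred or differed. The mutant libraries also enter the filter on low counts and the shared estimate of spread in the control contrast. Every library was made from pooled whole larvae after removal of ribosomal RNA. The labels do not say whether the 3 libraries of a group came from separate cultures, so the p-values measure the spread between these libraries, which may be technical.

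In a larva of this stage the most sex-specific tissue is the gonad. The male gonad is already large and filled with spermatocytes, which switch on a broad transcription programme that is silent in other tissues, while the larval ovary is small. The rest of the body differs between the sexes mainly through the sex determination pathway, through the Y chromosome of males and through dosage compensation, which raises transcription of the single male X. TEs are mobile repeats that are held down in the germline by small RNAs, and their families include LTR retrotransposons, LINE-like retrotransposons, DNA transposons, the telomeric elements HeT-A and TART and the R1 and R2 elements of the ribosomal DNA. The table does not pair transcript identifiers with gene names, and only 27 of the known transcripts could be matched to a gene, so testis, ovary, Y-linked and dosage compensation genes, and with them the labelled sex and tissue, were not analysed here. In whole larvae, fewer cells of a type and less RNA per cell cannot be told apart.

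The values are normalized counts, and the read numbers recovered from them were between 90323500 and 119202607 per control library. Rows with at least 10 reads numbered 29668 to 33456 in control males and 28702 to 28978 in control females, a mean of 31487 ± 1898 against 28870 ± 147 (SD, n = 3 each). No male library overlapped with a female one in this number, and the exact two-sided permutation p was 0.1, the smallest that 3 libraries against 3 allow. The male libraries were also the less alike. The 10 most abundant rows took 24.5% of the normalized counts in CM1, 17.8% in CM2 and 32.6% in CM3, against 25.7% to 26.7% in control females, and the median standard deviation of a transcript on the log2 scale was 0.570 in males and 0.454 in females.

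Many more transcripts were higher in control males than in control females. Of the 35284 transcripts tested, 3527 (10%) passed the test (limma on log2(normalized count + 1), Benjamini-Hochberg adjusted p under 0.05, called hereafter). Of these, 3283 (9.30% of those tested) were higher in males and 244 (0.692%) were higher in females, so that 93.1% of the calls were male-higher. The direction was the same in each class of rows. Among 27842 known transcripts 3020 were higher in males and 187 in females, among 5107 assembled transcripts 202 were higher in males and 42 in females, and among 2335 TE insertions 61 were higher in males and 15 in females. An unadjusted p under 0.05 was reached by 5951 transcripts. All 3 male libraries lay above all 3 female libraries for 5527 transcripts (15.7%) and below them for 2640 (7.48%). DESeq2 called 3591 male-higher and 676 female-higher transcripts, and the edgeR quasi-likelihood test 2183 and 127. The female-higher count fell to 142, 148 and 155 when control female 1, 2 or 3 was left out.

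**Figure D1:**
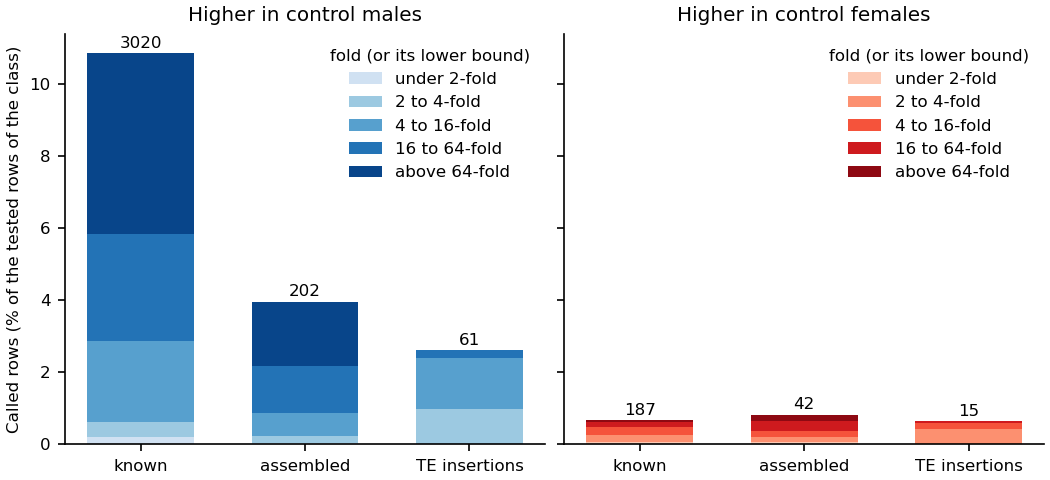
Called transcripts as a percentage of the tested rows of each class, higher in control males (left, blue) and higher in control females (right, red), divided by the size of the fold or its lower bound. The numbers above the bars are counts, from 3020 male-higher known transcripts down to 15 female-higher TE insertions.

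The middle of the distribution was close to 0. The median log2 difference, male minus female, was -0.004 over all transcripts, 0.02 over known transcripts and -0.09 over assembled transcripts. Over TE insertions it was -0.23, and 30.7% of the TE insertions had a positive difference, against 51.5% of the known transcripts. The TE insertions thus had most of their calls in males and most of their uncalled differences in the other direction. All male libraries lay above the female ones for 155 insertions (6.64%) and below them for 289 (12.4%). Over all tested transcripts these shares were 15.7% and 7.48%. The tail was on the male side: the 95th percentile over all transcripts was 6.24 and the 5th was -2.06 on the log2 scale.

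The median male-higher transcript was nearly silent in females. The median of the mean levels of the male-higher transcripts was 377 normalized counts in control males and 0.916 in control females. In males 754 of them averaged over 1000, and in females 61 did. For 1708 (52.0%) no female library held more than 3 reads, the limit below which a transcript is treated here as not detectable. The female-higher transcripts had a median mean level of 71.2 normalized counts in control males and 613 in control females, and for 43 (17.6%) no male library held more than 3 reads. With folds against such silent groups set at the bound that 3 reads per library allow, the median log2 difference was 5.66 for the male-higher and -2.76 for the female-higher transcripts. A fold of over 64 was reached by 1489 male-higher (45.4%) and 28 female-higher transcripts (11.5%), while 55 male-higher and 16 female-higher transcripts differed by less than 2-fold.

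**Figure D2:**
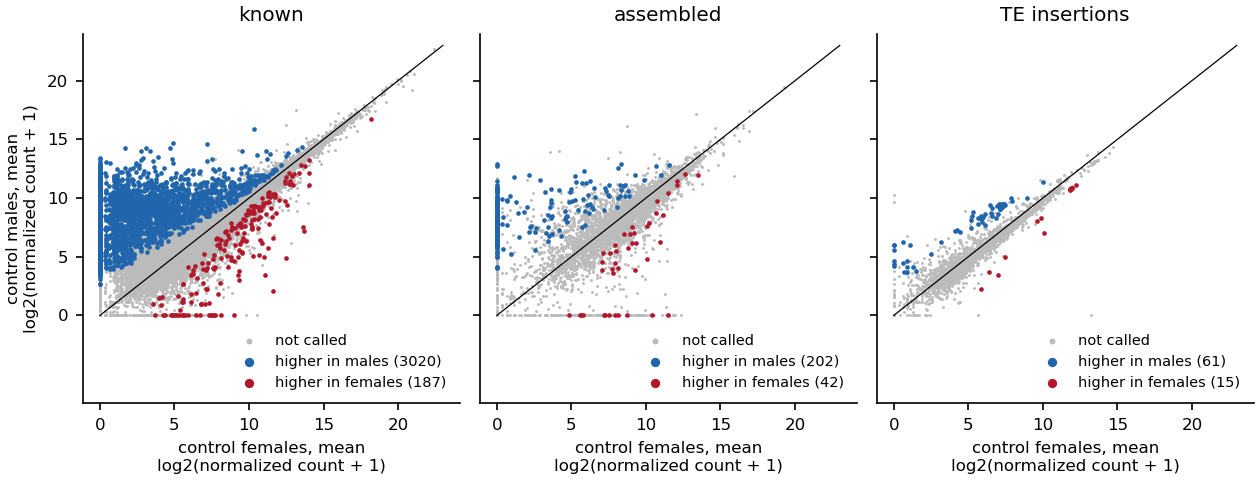
Mean log2(normalized count + 1) in control males (vertical) against control females (horizontal) for each tested transcript of the 3 classes, with equality as a line. Male-higher transcripts (blue) fill the region near 0 on the female axis, where 1708 of 3283 had at most 3 reads in every female library.

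The tested transcripts were divided into 4 equal groups by mean level over the libraries, not corrected for transcript length. From the lowest group to the highest, 8.17%, 11.8%, 12.7% and 4.50% of the transcripts were male-higher, and 0.442%, 0.692%, 0.782% and 0.850% were female-higher. The 3283 male-higher transcripts together made up 3.02%, 4.68% and 2.34% of the normalized counts of CM1, CM2 and CM3, against 0.258%, 0.256% and 0.277% in CF1, CF2 and CF3. The 244 female-higher transcripts made up 0.248%, 0.360% and 0.235% in the males, against 0.765%, 0.785% and 0.778% in the females. These sums follow from the calls and are given as a description. CM2 was the highest male library for 1828 of the 3020 known male-higher transcripts, and CM3 the lowest for 1340.

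Transcripts present in only the libraries of a single sex were also mostly male. At least 10 reads in every male library with at most 3 in every female library were found for 1695 rows (4.13% of all rows): 1552 known, 130 assembled and 13 TE insertions. The opposite pattern was found for 61 rows, 40 known, 21 assembled and 0 TE insertions. The male-limited rows summed to 862864, 1060414 and 827267 normalized counts in CM1, CM2 and CM3, against 173 to 234 in the female libraries. Their share of all normalized counts was thus 0.947%, 1.52% and 0.731% in the males, and the highest of them averaged 11150 in males. The limma test called 1627 of the 1686 male-limited and 37 of the 61 female-limited rows that were tested, against 10% of all tested transcripts. The rows were chosen by their reads in these same control libraries, which largely fixes those calls. They overlap with the calls above and are given as a description.

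The known transcripts with the highest mean levels among the male-higher calls held the contrast in every library. FBtr0070634 had 75711, 65162 and 43745 normalized counts in CM1, CM2 and CM3, against 1527, 929 and 1488 in CF1, CF2 and CF3. The log2 difference was 5.55 ± 0.36 (SE, adjusted p = 1.0e-05). FBtr0302285 had 24467, 30252 and 24980 in males, against 17.0, 17.0 and 52.2 in females, a difference of 10 ± 1.60 (adjusted p = 0.0019). No male library of either transcript came near a female one. FBtr0073514 had 28907, 14691 and 32907 in males, against 313, 18.8 and 110 in females (8.09 ± 0.81, adjusted p = 1.0e-04). The fourth by level differed little: FBtr0303384 had 27368, 20590 and 16279 in males, against 14360, 10015 and 11943 in females (0.81 ± 0.22, adjusted p = 0.043). Its groups did not overlap, but its call was lost without control male 1 or 2 or control female 2 or 3 (adjusted p between 0.10 and 0.18).

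The largest differences were between a strong signal and little or none. FBtr0081028 had 9666, 10162 and 10252 normalized counts in the male libraries and 0 in each female library, which is at least 3828-fold higher in males when 3 reads per female library are taken as the limit (adjusted p = 1.8e-05). FBtr0332255 had 12673, 26662 and 20655 in males, against 0, 0 and 6.41 in females (13.26 ± 1.65, adjusted p = 3.5e-04).

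The known transcripts higher in females showed smaller folds at high levels. FBtr0343428 had 86469, 106390 and 139356 normalized counts in males, against 303701, 298634 and 281491 in females, and fell by 1.44 ± 0.22 on the log2 scale (adjusted p = 0.0014). The groups were well apart, and the call held without any single control library. FBtr0305582 had 12194, 8542 and 7832 in males, against 16218, 19200 and 15047 in females (-0.84 ± 0.19, adjusted p = 0.016). FBtr0083565 had 2779, 7515 and 3106 in males, against 26422, 11729 and 12949 in females (-1.98 ± 0.52, adjusted p = 0.036), and FBtr0086942 had 4244, 933 and 1342 in males, against 16734, 15840 and 17782 in females (-3.26 ± 0.82, adjusted p = 0.028). These 3 calls were not stable to single libraries. FBtr0305582 was lost without control male 2 or 3 or control female 2 (adjusted p 0.063 to 0.075), FBtr0083565 without control male 1 or 3, any control female or *ISWI* mutant male 2 (0.053 to 0.15), and FBtr0086942 without control male 2 or 3 or any control female (0.077 to 0.11).

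Both of the female-higher known transcripts with the largest differences were close to silent in males. FBtr0331264 had 0, 0 and 28.8 normalized counts in males, against 2243, 2298 and 1857 in females (-9.42 ± 1.15, adjusted p = 3.2e-04). FBtr0073821 had 0, 0.629 and 8.77 in males, against 4088, 4821 and 668 in females (-9.88 ± 1.98, adjusted p = 0.0075). Both calls held without any single control library.

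**Figure D3:**
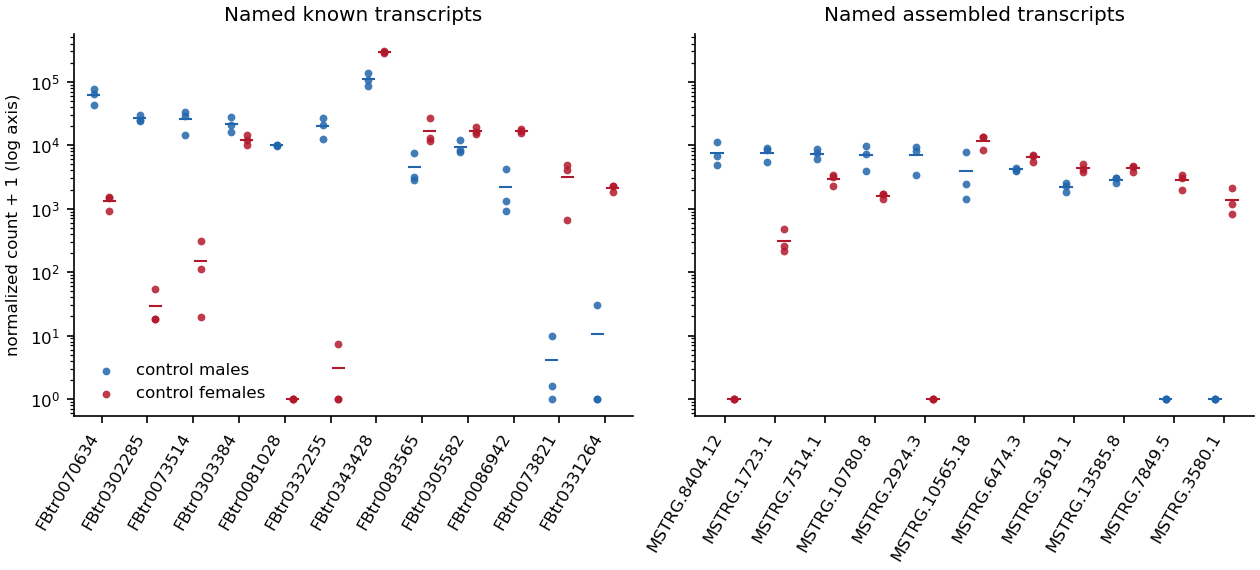
Normalized count + 1 (log axis) of the named known (left) and assembled transcripts (right) in the 3 control male (blue) and 3 control female libraries (red), with the mean as a bar. Points on the lowest line are libraries at 0, such as all 3 female libraries of FBtr0081028 and all 3 male libraries of MSTRG.3580.1.

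The 27 known transcripts that could be matched to a gene mostly had small differences between the sexes. Their median log2 difference was 0.03, and 23 were within 0.5 of 0. Among them 1 was called, against 11.5% of all known transcripts tested. A transcript that was not called may still differ. FBtr0077835 of mio had 69.4, 98.1 and 125 normalized counts in males, against 442, 138 and 409 in females (-1.61 ± 0.73, adjusted p = 0.30). The 3 on the X chromosome had a median of 0.03 and the 24 on autosomes a median of 0.02. FBtr0077014 of LanA, a laminin subunit of basement membranes, had 27901, 38241 and 25160 normalized counts in males, against 34638, 40889 and 34839 in females (-0.29, adjusted p = 0.54). FBtr0088499 of Uba1, the ubiquitin-activating enzyme, had 26771, 32551 and 24168 in males, against 26418, 30329 and 24715 in females (0.03). The sexes overlapped for both. FBtr0078767 of HDAC3, a histone deacetylase, had 2299, 2211 and 2653 in males, against 2359, 2344 and 2346 in females (0.02).

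The transcript called among the 27 was FBtr0082231 of sle (slender lobes, on 3R), whose product is known from the nucleolus of larval neuroblasts. It had 56.3, 7.54 and 38.8 normalized counts in CM1, CM2 and CM3, against 2012, 1915 and 900 in CF1, CF2 and CF3. Every male library was thus far below every female library, with a log2 difference of -5.81 ± 0.75 (adjusted p = 4.6e-04), and the call held without any single control library. In *ISWI* mutants the same transcript had 3290, 772 and 3625 in males, against 3135, 3398 and 3255 in females. The difference between the genotypes in this sex effect had an adjusted p of 0.068. These counts are of a single transcript of the gene, since its other transcripts were not matched.

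The assembled transcripts showed a weaker asymmetry, with 202 male-higher (3.96%) and 42 female-higher calls (0.822%), against 10.8% and 0.672% of the known transcripts. Of the 202, 120 (59.4%) had at most 3 reads in every female library. MSTRG.8404.12 had 6801, 11147 and 4900 normalized counts in males and 0 in each female library, at least 2907-fold higher in males (adjusted p = 0.0033). MSTRG.2924.3 had 8244, 9235 and 3408 in males and 0 in each female library, at least 2658-fold higher (adjusted p = 0.0028). The edgeR test did not call these 2 (adjusted p = 0.070 and 0.12). The 0 in females holds for these transcripts and not for all transcripts of their loci. The sum over MSTRG.8404 was 9015, 12975 and 9227 in males, against 862, 967 and 1102 in females. The sum over MSTRG.2924 was 8792, 9760 and 3649 in males, against 25.1, 20.5 and 0 in females. Both sums were called higher in males. MSTRG.1723.1 was at 5375, 8906 and 8420 in males, against 211, 258 and 472 in females (4.64 ± 0.58). Smaller differences without overlap were those of MSTRG.10780.8, with 9584, 7385 and 3959 in males against 1437, 1689 and 1700 in females (2.03 ± 0.30), and of MSTRG.7514.1, with 7510, 5995 and 8579 against 3139, 3433 and 2268 (1.33 ± 0.19).

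Among the female-higher assembled transcripts, MSTRG.3580.1 had 0 in each male library, against 1165, 2144 and 831 normalized counts in females, at least 489-fold lower in males (adjusted p = 0.0061), a call that held without any single control library. MSTRG.7849.5 also had 0 in each male library, against 3387, 3060 and 1962 in females, at least 994-fold lower in males (adjusted p = 0.047). Its call was lost without any single control library (adjusted p 0.11 to 0.13). The transcripts with the highest female levels differed less. MSTRG.10565.18 had 2407, 7805 and 1432 in males against 13410, 8324 and 13590 in females (-1.94 ± 0.54), MSTRG.6474.3 had 4120, 4438 and 3903 against 5481, 6970 and 6763 (-0.62 ± 0.15), MSTRG.3619.1 had 2544, 1853 and 2281 against 4195, 3763 and 5135 (-0.97 ± 0.23) and MSTRG.13585.8 had 2551, 3025 and 3004 against 4502, 4655 and 3799 (-0.59 ± 0.16). None of these 4 kept its call in each fit without a library. MSTRG.10565.18 was lost without control male 1 or 3, any control female or *ISWI* mutant male 2 (adjusted p 0.053 to 0.16), and MSTRG.6474.3 without control male 1 or 3 or control female 2 or 3 (0.078 to 0.099). MSTRG.3619.1 was lost without control male 2 or 3 or control female 1 or 3 (0.062 to 0.099), and MSTRG.13585.8 without any control male or control female 1 or 2 (0.068 to 0.17).

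Since the reads of an assembled locus are divided among its transcripts, the counts were also summed per locus. Of 2156 loci tested, 108 (5.01%) were higher in males and 4 (0.186%) in females, 112 in all (5.19%). A called transcript was found at 201 loci: at 162 the calls were male-higher only, at 32 female-higher only, and at 7 in both directions. The sum over the locus was called for 104 of the 162, 3 of the 32 and 0 of the 7. The count of called loci fell to 71 without control male 1 and to 71 without control male 2. The 4 female-higher loci were MSTRG.8315 (-0.77), MSTRG.14763 (-1.57), MSTRG.3619 (-0.97) and MSTRG.16508, which had 0 in each male library, against 36.4, 69.7 and 58.6 normalized counts in females.

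At 7 loci assembled transcripts were called in opposite directions, and the sum over the locus was called at 0 of them. MSTRG.6079, the highest of them, had 13725, 13928 and 12145 normalized counts over all its transcripts in males, against 12742, 14012 and 12916 in females (0.00 ± 0.16). Its transcript MSTRG.6079.27 had 61.0, 2533 and 1622 in males and 0 in each female library, and MSTRG.6079.7 had 54.4, 89.9 and 76.4 in males, against 3268, 147 and 2519 in females. The call of MSTRG.6079.27 was lost without control male 2 or 3 or any control female (adjusted p 0.11 to 0.15), and that of MSTRG.6079.7 without any control male or control female 1 or 3 (0.063 to 0.11). The sum over MSTRG.6572 was 4176, 4489 and 4664 in males, against 4310, 4640 and 4234 in females (0.02 ± 0.17). There MSTRG.6572.7 had 267, 103 and 58.9 in males and 0 in each female library, while MSTRG.6572.12 had 0, 39.6 and 0 in males, against 68.0, 174 and 156 in females. MSTRG.6572.7 was not tested without a control male library and stayed called without any control female, while the call of MSTRG.6572.12 was lost without control male 1 or 3 or any control female (0.056 to 0.13). The sum over MSTRG.6281 overlapped between the sexes, with 2969, 5552 and 2103 in males and 1295, 2363 and 1765 in females (0.89 ± 0.49, adjusted p = 0.50).

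A further locus, MSTRG.10964, was chosen here after its values were seen. MSTRG.10964.1 had 236, 268 and 189 normalized counts in males and 0 in each female library, at least 88.2-fold higher in males (adjusted p = 0.0056, and 0.15 by edgeR). MSTRG.10964.2 had 53.5, 28.9 and 52.6 in males, against 274, 248 and 225 in females (-2.49 ± 0.37, adjusted p = 0.0011). The sum of the locus was 290, 297 and 242 in males, against 274, 248 and 225 in females (0.15 ± 0.35). How reads common to overlapping transcripts were divided between them was not tested.

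Of the TE insertions, 76 were called, 61 of them male-higher. The LTR retrotransposon opus had 20 of its 26 tested insertions male-higher, Quasimodo 11 of 21 and McClintock 4 of 7, so that these LTR families held most of the 61. Transpac, also an LTR retrotransposon, held 7 of the 15 female-higher insertions, out of 10 tested. Insertions of a family share sequence and are not independent measurements. By class, 43 of 836 LTR insertions were male-higher and 10 female-higher, against 7 and 1 of 384 DNA transposon insertions, 4 and 1 of 484 LINE-like insertions and 2 and 1 of 511 INE-1 insertions. Of the telomeric insertions 3 of 23 were male-higher, and of the 16 rDNA insertions 0 were called in either direction.

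The count of 76 was sensitive to single libraries. It fell to 38 without control male 1, 32 without control male 2, 35, 40 and 31 without control female 1, 2 and 3, and was 75 without control male 3. The share of TEs in all normalized counts was 0.915%, 1.16% and 0.574% in CM1, CM2 and CM3, against 0.911%, 0.905% and 1.09% in CF1, CF2 and CF3, so the sexes overlapped. CM2 was the highest male library for 46 of the 61 male-higher insertions and CM3 the lowest for 46. What these library levels contribute to the calls was not tested.

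The insertions with the highest levels were as follows. The element blood{}356 had 1636, 2918 and 3390 normalized counts in males, against 1040, 1178 and 902 in females (1.29 ± 0.30). 1731{}RR43316 had 1007, 1334 and 777 in males, against 394, 414 and 641 in females (1.10 ± 0.30). opus{}RR48408 had 973, 1683 and 407 in males, against 245, 219 and 235 in females (1.90 ± 0.47), and opus{}33 had 807, 1341 and 392 in males, against 258, 209 and 268 in females (1.62 ± 0.44). None of these groups overlapped, but each call was lost when single libraries were left out: blood{}356 without control male 2 or 3 or control female 1 or 3 (adjusted p 0.060 to 0.084), 1731{}RR43316 without control male 1 or 2 or control female 1 or 2 (0.12 to 0.16), opus{}RR48408 (0.068 to 0.093) and opus{}33 (0.093 to 0.15) without any control library other than control male 3.

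Both insertions with the largest male-higher differences were at 0 in females. TART-C{}6275, a telomeric element, had 76.0, 66.6 and 47.6 normalized counts in males and 0 in each female library, at least 24.2-fold higher in males (adjusted p = 0.0020). mariner2{}522, a DNA transposon, had 46.9, 52.2 and 94.0 in males and 0 in each female library, at least 24.6-fold higher (adjusted p = 4.0e-04). Both calls held in every fit without a library. The mariner2 family as a whole had 364, 593 and 533 in males, against 291, 257 and 367 in females, and was not called (0.69, adjusted p = 0.49).

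The female-higher insertions were led by Transpac. Transpac{}1439 had 2735, 1702 and 2393 normalized counts in males, against 4605, 4176 and 5909 in females (-1.12 ± 0.26, adjusted p = 0.017). Transpac{}156 (-1.10) and Transpac{}362 (-1.05) were alike, and so was RR51093, a row with no family name, with 2164, 1382 and 1967 in males against 3795, 3331 and 4804 in females (-1.12). All 4 were lost without control male 2 or control female 3, and Transpac{}156 and Transpac{}362 also without control female 1 (adjusted p 0.054 to 0.088). F{}3570, a LINE-like element, had 4.69, 1.26 and 5.01 in males, against 42.1, 34.8 and 97.1 in females (-3.65 ± 0.68, adjusted p = 0.0050). 412{}962 had 0, 28.9 and 0 in males, against 131, 130 and 109 in females (-5.32 ± 1.22), and was lost without control male 1 or 3 or any control female (adjusted p 0.050 to 0.076).

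Summed over their insertions, 10 of 150 TE families were called (6.67%), 7 higher in males (4.67%) and 3 higher in females (2%). RR48344, RR50423 and RR51093 among them are single insertions whose symbols give no family, each taken as a family of its own. Whether they belong to a named family was not tested. All male libraries lay above all female ones for 17 families (11.3%) and below them for 18 (12%). The single Doc2-element insertion, a LINE-like retrotransposon, had 170, 179 and 119 normalized counts in males, against 13.0, 25.9 and 13.7 in females (3.13 ± 0.51, adjusted p = 7.9e-04). McClintock had 1179, 1747 and 486 in males, against 192, 147 and 162 in females (2.59 ± 0.45, adjusted p = 0.0013). Both families, and TART-C with its single insertion, were called in each fit without a control library.

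The other male-higher families were less stable. The opus family had 13934, 22592 and 5960 normalized counts in males, against 3855, 3258 and 3824 in females (1.76 ± 0.39, adjusted p = 0.0099). Tabor had 2723, 2963 and 1010 in males, against 545, 371 and 455 in females (2.15 ± 0.50, adjusted p = 0.011). RR50423 (1.77) and invader5 (1.52) were the other two. CM3 was the lowest male library in all 7 male-higher families, and CM2 the highest in 6. Without control male 2, 4 families were called in all, and without control female 3, 6 were called. The opus call was lost only without control male 2 (adjusted p = 0.071), Tabor without control male 1 (0.051) or 2 (0.071), RR50423 without control male 1 or 2 or control female 2 or 3 (0.055 to 0.14) and invader5 without any control library other than control male 3 (0.091 to 0.25). Quasimodo, with 11 male-higher insertions, had 8491, 10831 and 4528 in males, against 4887, 4439 and 4350 in females and was not called as a family (0.71, adjusted p = 0.39).

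Of the families higher in females, RR48344 (1 insertion) had 309, 44.6 and 26.3 normalized counts in males, against 788, 1925 and 464 in females (-3.61 ± 0.68, adjusted p = 0.0022), and was called in each fit without a control library. Transpac had 19970, 11706 and 18203 in males, against 32873, 29303 and 42559 in females (-1.09 ± 0.28, adjusted p = 0.022). It was lost without control male 2 (adjusted p = 0.15) or control female 1 (0.062) or 3 (0.15), and RR51093 without the same 3 libraries (0.076 to 0.16).

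**Figure D4:**
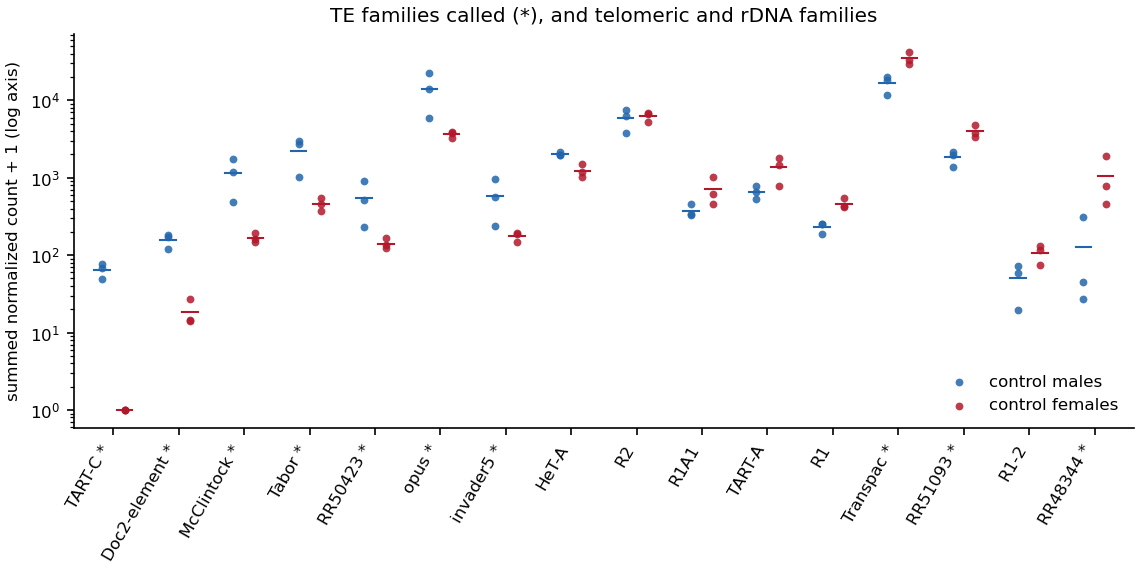
Normalized counts summed over the insertions of a TE family, plus 1 (log axis), in the 3 control male (blue) and 3 control female libraries (red), with the mean as a bar, for the 10 families called (*) and the telomeric and rDNA families. The male libraries of opus span 5960 to 22592, all above the female libraries at 3258 to 3855.

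The telomeric and rDNA families other than TART-C were not called. HeT-A, which builds the fly telomere together with TART, had 2162, 1984 and 1966 normalized counts in males, against 1012, 1193 and 1494 in females. Its groups did not overlap, and the difference was 0.74 ± 0.30 (adjusted p = 0.23). Of its 15 tested insertions 2 were called, with differences of 2.68 and 4.32. TART-A had 661, 774 and 533 in males, against 1812, 1479 and 790 in females (-0.99 ± 0.46, adjusted p = 0.34). Its groups did not overlap either, and its sign was opposite to that of HeT-A and TART-C. In the rDNA, R1 (-1.01), R1-2 (-1.26) and R1A1 (-0.84) had negative differences, with all male libraries below all female ones. R2 had 7491, 3828 and 6317 in males, against 6668, 6895 and 5222 in females (-0.14 ± 0.46). Among the abundant LTR families, copia (-0.43, adjusted p = 0.58) and roo (-0.51, adjusted p = 0.49) were not called either.

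The same contrast in *ISWI* mutants gave fewer calls. Between *ISWI* mutant males and *ISWI* mutant females, 1056 transcripts (2.99%) were higher in males and 75 (0.213%) in females, so the male side was again the larger. Of the 3283 transcripts higher in control males, 943 (28.7%) were also called higher in mutant males and 1 was called in the other direction. A positive difference in the mutants was found for 93.3% of the 3283, against 55.0% of all tested transcripts. Their median log2 difference was 6.34 in the controls and 2.57 in the mutants. A smaller median outside the contrast that chose the transcripts is partly set by that choice. Of the 244 female-higher transcripts, 13 (5.33%) were called higher in mutant females and 4 in mutant males, and 63.1% kept the sign, against 44.2% with a negative difference among all tested. Their median was -2.82 in the controls and -0.32 in the mutants. The male-higher TE insertions were called again in 3 of 61 and kept a positive sign in 91.8%, against 73.3% of all TE insertions. Of the 15 female-higher TE insertions 0 were called, and 26.7% were negative, against 26.6% of all.

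*ISWI* mutant male 2 stood apart from the other mutant males, with 33357 rows of at least 10 reads against 30085 and 29295 and with 0.461% of its normalized counts in the male-limited rows against 0.137% and 0.103%. The same rows took 0.0194% to 0.0264% in mutant females. Without it, 653 transcripts were higher in mutant males and 601 in males of both genotypes. In the controls these rows took 0.731% to 1.52% in males and 0.00018% to 0.00026% in females (the rows were chosen by their reads in these control libraries, which fixes that contrast). Of the 1695 male-limited rows 233 met the same criterion in the mutants and 44 had at least 10 reads in every mutant female library. Of the 61 female-limited rows 1 met it and 11 had at least 10 reads in every mutant male library. Among all 41081 rows, 27888 to 28420 had at least 10 reads in a mutant female library and 29295 to 33357 in a mutant male library. How many of all rows met the criterion in the mutants was not counted, so these numbers are a description only.

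The known transcripts named above showed both patterns. FBtr0070634 had 77545, 71781 and 62150 normalized counts in mutant males, against 6592, 9323 and 3431 in mutant females (3.56, adjusted p = 4.8e-04). FBtr0343428 (-1.15, adjusted p = 0.019) and FBtr0331264 (-10.05, adjusted p = 0.0010) were called in the mutants as well. FBtr0073514 had 35051, 16323 and 17975 in mutant males, against 2079, 3050 and 2358 in mutant females (3.14, adjusted p = 0.078), and each mutant female library was above each control female library. FBtr0086942 had 12000, 4036 and 17000 in mutant males, against 14237, 2743 and 21979 in mutant females, and these groups overlapped.

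The sex difference itself was compared between the genotypes by an interaction test, control minus mutant. It called 282 transcripts (0.799%), and 3881 had an unadjusted p under 0.05. Of the 282, 247 were among the calls of the controls: 231 male-higher and 16 female-higher transcripts. Selection by a call in the controls largely fixes the direction of these 247. Over all 282, the male minus female difference was higher in the controls for 238 and lower for 44, and among the 35 outside the control calls it was higher for 7 and lower for 28. The count was 80, 117 and 83 without control male 1, 2 and 3, 179 without control female 1 and 179 without control female 2, and 1303 without *ISWI* mutant male 2. In TE families the test called 2 of 150 (1.33%). Background and genotype cannot be told apart here, since the marker mutations are given for the mutant stocks only.

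Among the named transcripts the interaction was called for FBtr0081028, at 1281, 3148 and 1011 normalized counts in mutant males against 38.9, 3.44 and 130 in mutant females, where control females had 0. Its interaction was 7.48 on the fitted log2 scale, which for a group at 0 depends on the added count of 1 (adjusted p = 0.044), and the call was lost without any single control library (adjusted p 0.093 to 0.16). It was also called for MSTRG.6572.7, at 267, 103 and 58.9 in control males and at 0 in every control female and mutant library (6.89 on the same scale, adjusted p = 0.0064). That call was lost in DESeq2 (adjusted p = 0.36) and edgeR (1.0). MSTRG.6572.7 passed the filter only through its control male libraries, so it was not tested with any of them left out. Its mutant difference was 0, so its interaction repeats the control difference and is no separate evidence on genotype. The families called were RR48344, at 163, 211 and 137 in mutant males against 109, 117 and 92.0 in mutant females (-4.27, adjusted p = 0.027), and Cr1a, a LINE-like family with 82 tested insertions. Cr1a had 6121, 12624 and 4337 in control males against 7474, 6678 and 6947 in control females (-0.02), and 50489, 163589 and 79582 in mutant males against 11142, 12533 and 13485 in mutant females (2.82, adjusted p = 2.3e-04). Its interaction was -2.83 (adjusted p = 0.013) and was called without any single control library and without *ISWI* mutant male 2. That of RR48344 was lost without control male 2 (adjusted p = 0.071), control female 2 (0.080) or *ISWI* mutant male 2 (0.059).

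**Figure D5:**
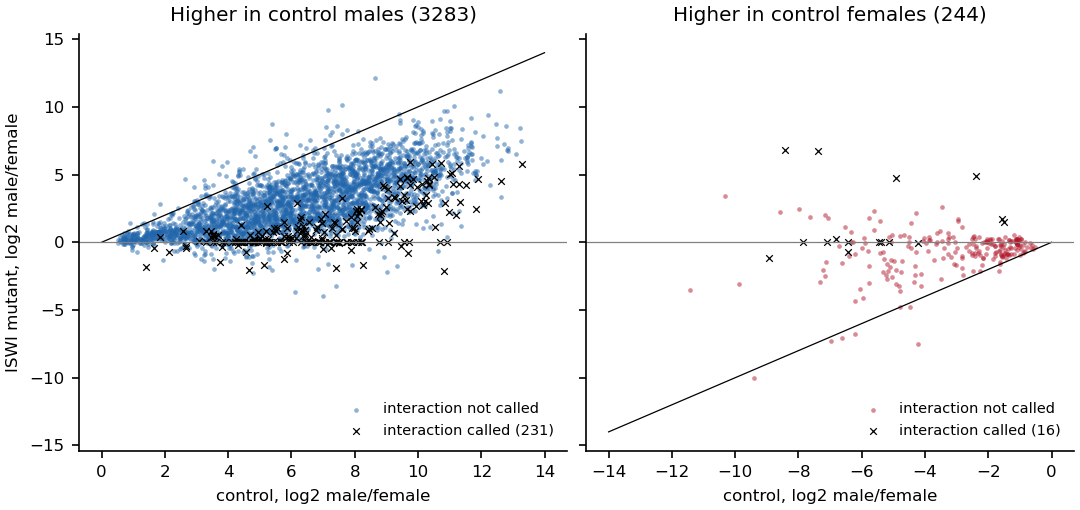
Log2 male to female difference in *ISWI* mutants (vertical) against controls (horizontal) for the 3283 transcripts higher in control males (left) and the 244 higher in control females (right), with equality as a black line. Crosses are transcripts with a called interaction (231 and 16). The horizontal axis chose the transcripts shown.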

How the data were processed

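RNA of pooled whole larvae was sequenced in 12 libraries of 4 groups, 3 per group. Per the labels, reads were trimmed with Trimmomatic 0.39, mapped to BDGP6 with HISAT2 2.2.1 and assembled and quantified with StringTie 2.1.5. The values the authors deposited are a signal, read counts divided by a size factor per library in DESeq2 1.32.0. They are whole multiples of the value of 1 read, and at up to 1000 reads 100% came out whole with a tolerance of 0.01. Size factors of the control libraries were between 0.798 and 1.59.

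The main test was limma 3.58.1 (R 4.3.3) on log2(normalized count + 1), with 4 group means over 12 libraries, an intensity trend and Benjamini-Hochberg adjustment over transcripts with at least 10 normalized counts in at least 3 libraries. Fold changes on this scale understate those of low transcripts. Families and loci were tested on summed counts. DESeq2 1.42.0 and edgeR 4.0.16 on the recovered reads, other filters, scalings and pseudocounts, a replicate block and leaving out libraries were alternatives, and the tests were tried on simulated data. Leaving out *ISWI* mutant male 2 was chosen after seeing the data. Folds against a group with at most 3 reads in each library are bounds computed against 3 reads per library, which covers counting error only.

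The transcripts named are, per class and direction, the 4 highest in mean level and the 2 largest in log2 difference among calls without overlap. The families named are up to 5 per direction by log2 difference and all telomeric and rDNA families, and the loci are the 3 highest with calls in both directions. Others were named after their values were seen. Members, lists and TE classes were chosen with earlier results of these data known, and 15 family spellings were added after the data were seen. Correlations of same-numbered male and female libraries ran from -0.020 to 0.037, with a mean of 0.018 against -0.009 for the other pairs. With 3 libraries per sex these values can neither show nor exclude a pairing, and the main test used none. TE families are from symbols matched for 3840 insertions, and gene names of 27 transcripts from the synonyms of a RefSeq gene table of Release 6. A TE row whose symbol gives no family was taken as a family of its own. The strand setting of the counting is not given in the sources used here, so overlapping and antisense genes may share reads. The authors' own comparisons were not used.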

Additional observations from a re-analysis of the deposited data

Results flagged for a closer look

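The sex difference differed between controls and *ISWI* mutants, by the interaction test of limma, for 282 transcripts. Among the transcripts and families named, this held for FBtr0081028, which was at 0 in every control female library but not in mutant females (7.48 on the fitted log2 scale, control minus mutant), for MSTRG.6572.7, which was above 0 only in the 3 control male libraries (6.89 on the same scale), for the RR48344 family, whose difference of -3.61 in controls stood against 0.66 in mutants (interaction -4.27), and for the Cr1a family, whose difference of -0.02 in controls stood against 2.82 in mutants (interaction -2.83). The fitted values of FBtr0081028 and MSTRG.6572.7 depend on the added count of 1. MSTRG.6572.7 passed the filter only through its control male libraries, and its interaction repeats its control difference. The call of FBtr0081028 was lost in edgeR (adjusted p = 0.12), with the replicate block (0.11), with a pseudocount of 5 (0.055) and without any single control library (0.093 to 0.16). That of MSTRG.6572.7 was lost in DESeq2 (0.36) and edgeR (1.0), and that of RR48344 in edgeR (0.093) and without control male 2 (0.071), control female 2 (0.080) or *ISWI* mutant male 2 (0.059). Cr1a stayed called in each setting run. The only row outside the 3 classes, FBgn0013687_df_pt, was in no comparison. It had 2, 0 and 1 reads in CM1, CM2 and CM3, against 7, 3 and 0 in CF1, CF2 and CF3, and its highest value of 7 reads is above the 3 reads taken as the limit of detection.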

How the results depend on the processing

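The direction of all 52 named calls was kept in each setting that could be fitted, and 25 stayed called in each fit without a single control library in which they were tested (F{}3570 and MSTRG.6572.7 were tested in 3 of these 6). Of the 52, 22 stayed called in every setting in which they were tested. Of the named calls, 15 were lost in edgeR, 14 with control libraries only and 16 with at least 10 in all 6 control libraries. That last filter left 43 of the 61 named transcripts, families and loci to test. Counts are given as male-higher, female-higher, then called known, assembled, TE insertions, families, loci and interactions, beside 3283, 244, 3207, 244, 76, 10, 112 and 282 in the main test. Counts that moved by over 1.5 times were, in DESeq2, 676 female-higher, 509 assembled, 115 TE insertions, 202 loci and 1661 interactions, and in edgeR 2183, 127, 2112 known, 136 assembled, 17 families, 64 loci and 52 interactions. With at least 10 in all 6 control libraries, which removes transcripts silent in a sex, they were 481, 59, 491, 29, 20 TE insertions, 29 loci and 34 interactions. Control libraries alone gave 47 TE insertions. Leaving out a control library gave 2523 to 2945, 142 to 275, 2555 to 2855, 180 to 214, 31 to 75, 4 to 10, 71 to 100 and 80 to 205. Leaving out *ISWI* mutant male 2 gave 3381, 275, 3309, 265, 82, 12, 124 and 1303.

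The mutant contrast gave 1056 male-higher and 75 female-higher transcripts, with 943 and 13 shared in direction with the controls. These were 2026, 433, 1487 and 60 in DESeq2, 290, 14, 261 and 2 in edgeR, and 97, 14, 64 and 3 with at least 10 in all 6 control libraries. Leaving out a control library gave 857 to 975, 59 to 73, 754 to 863 and 10 to 17. Without *ISWI* mutant male 2 they were 653, 111, 601 and 13. The cause of these shifts was not tested where the setting itself does not show it. The replicate block, which treats samples of the same number as paired, gave 3151 male-higher and 227 female-higher transcripts and 123 interactions. Among the control libraries, 2 of 3 male libraries correlated best with the female library of their own number. TMM scaling, no filter, other pseudocounts and a log2 threshold of 1 moved no count of the control contrast by over 1.5 times.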
